A study of Mus musculus with 3 samples.

Results

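Large-vessel endothelial cells line arteries and veins rather than capillaries. Their barcodes were picked out of a single-cell RNA measurement of mouse pancreas by the genes of the vessel wall that they carry. A barcode, the tag of 1 droplet, was kept with at least 500 UMIs (counted RNA molecules), at least 200 genes and no more than 20% mitochondrial UMIs. It was called endothelial with at least 3 UMIs, from at least 2 genes, of Pecam1, Cdh5, Egfl7, Ptprb, Esam and Cldn5. It also had at most 3 UMIs of the fibroblast genes Col1a1, Col3a1 and Dcn and 0 UMIs of the lymphatic genes Ccl21a, Mmrn1 and Prox1. Of these endothelial barcodes, the large-vessel ones held at least 4 UMIs of Vwf, Mgp, Bgn, Cytl1 and Eln together. The cells were thus selected on their measured UMIs of these genes, so the levels of all these genes are given as a description only. They found 74 large-vessel barcodes among 865 endothelial barcodes, 36630 filtered barcodes and 41134 deposited barcodes.

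Each group was 1 library, with no replicates, and the labels do not say how many animals a library holds. The library labelled diabetic-Exercise came from male db/db mice, whose leptin receptor does not work and which grow obese and diabetic, put through treadmill training from 6 weeks of age. The library labelled diabetic was sedentary; its labels give no genotype, and db/db is the one genotype that the series names. The library labelled none was also sedentary, with no genotype or age in its labels. Libraries were made with the 10x Chromium 3-prime kit, version 3. With 1 library per group no test between groups was possible. Every interval below is a 95% interval that covers counting error only, and handling of a library, animals and training cannot be told apart.

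The 3 libraries held 45209034 (diabetic-Exercise), 80185752 (diabetic) and 54128454 UMIs (none). Filtered barcodes had a median of 1989, 5108 and 4164 UMIs in that order, and endothelial barcodes 2542, 2859 and 3363.5. Barcode sequences that occurred in more than 1 library numbered 27 to 46 per pair of libraries after filtering, and 0 of them were large-vessel barcodes. The doublet caller's automatic threshold marked 0 barcodes, and 0 of the large-vessel barcodes of diabetic-Exercise and 1 of those of diabetic lay in the top 5% of doublet scores. A diabetic barcode with 160 UMIs of pericyte and smooth muscle markers and one with 96 of ductal markers lay outside it. The scores therefore cannot show that the large-vessel barcodes are free of doublets.

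The wall of a large vessel differs from that of a capillary in its elastic fibres and in the matrix proteins that the lining cells share with the smooth muscle beneath them. Arterial endothelium is known for connexin channels, Notch signalling and Sox17, and venous endothelium for the transcription factor Nr2f2 (COUP-TFII) and for the receptors that catch leukocytes. Capillary endothelium exchanges solutes and fatty acids with the tissue and is known for Rgcc, Car4, Gpihbp1 and Kdr.

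Promoters are shown for 2 genes that recur below: Cytl1, one of the 5 choosing genes, and Gja5 of arteries. Each line gives the 250 bases upstream of the RefSeq start in the table used, on the gene's strand, on GRCm38.p6. The Cytl1 window is chr5:37735269-37735518 and that of Gja5 chr3:97032152-97032401, both on the plus strand. Gene positions elsewhere are those of GENCODE M21, where a longer transcript of Gja5 begins far upstream, at 96904693, so that this window lies within the gene. Capitals mark AGGAAG or its reverse complement CTTCCT, letters that contain the core bound by ETS transcription factors such as Erg and Fli1 of endothelial cells.
Cytl1: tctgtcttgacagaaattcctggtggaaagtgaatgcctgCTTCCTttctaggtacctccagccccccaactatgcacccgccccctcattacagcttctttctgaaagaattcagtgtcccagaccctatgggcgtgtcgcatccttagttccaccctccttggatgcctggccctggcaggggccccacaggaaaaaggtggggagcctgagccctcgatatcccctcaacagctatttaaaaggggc
Gja5: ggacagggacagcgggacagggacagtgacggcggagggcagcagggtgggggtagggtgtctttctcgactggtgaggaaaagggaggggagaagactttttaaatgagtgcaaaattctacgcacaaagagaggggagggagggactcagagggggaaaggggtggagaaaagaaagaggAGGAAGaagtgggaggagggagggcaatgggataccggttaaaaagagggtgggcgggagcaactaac

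The motif stood once in Cytl1, starting 210 bases before the start and once in Gja5, starting 68 bases before it. Of 10 genes looked up, 7 had a promoter in the table and 6 of these held the motif on either strand; Gkn3 did not. Of all 32851 promoter windows of this length, 9686 (29.5%) held it. A match describes letters and is not a binding site. The RNA of both factors was present in the large-vessel barcodes, with 22 UMIs of Erg in diabetic-Exercise and 12 in diabetic, and 24 and 18 UMIs of Fli1.

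Large-vessel barcodes were a larger share of endothelial barcodes in diabetic-Exercise than in the other libraries. They numbered 55 of 246 endothelial barcodes in diabetic-Exercise (22.4%, interval 17.3 to 28.1), 19 of 503 in diabetic (3.78%, 2.29 to 5.84) and 0 of 116 in none. The intervals are exact (Clopper-Pearson). For none, the limit of 3 counts of the total, used here for a count of 0, is 2.59%, and the exact upper limit is 3.13%. The share of diabetic-Exercise was 5.92 times that of diabetic (3.46 to 10.6), and the intervals of those libraries did not overlap.

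The size of that ratio depended on what it was taken over. Over all filtered barcodes, large-vessel barcodes were 0.347% in diabetic-Exercise (0.261 to 0.451), 0.164% in diabetic (0.0987 to 0.256) and 0 of 9169 in none, where 3 counts would be 0.0327% and the exact upper limit is 0.0402%. The ratio of diabetic-Exercise to diabetic was then 2.12 (1.24 to 3.78). Both totals differed, with 503 endothelial barcodes among 11599 filtered ones in diabetic and 246 among 15862 in diabetic-Exercise. Depth was taken into account by thinning each barcode to 1000 UMIs at random and applying the rule again. This left 41 of 180 endothelial barcodes in diabetic-Exercise (22.8%), 9 of 391 in diabetic (2.30%) and 0 of 61 in none, a ratio of 9.90 (4.74 to 23.2).

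The rule's threshold fell in a thinly filled range. In diabetic-Exercise, 13 endothelial barcodes had 2 UMIs of the 5 choosing genes, 5 had 3, 1 had 4 and 3 had 5, while 40 had 12 or more. In diabetic the numbers were 11, 4, 2 and 1, with 13 at 12 or more. No endothelial barcode of none passed 2 UMIs, and 108 of its 116 had 0, which was also the count of 143 barcodes of diabetic-Exercise and 399 of diabetic.

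**Figure D1:**
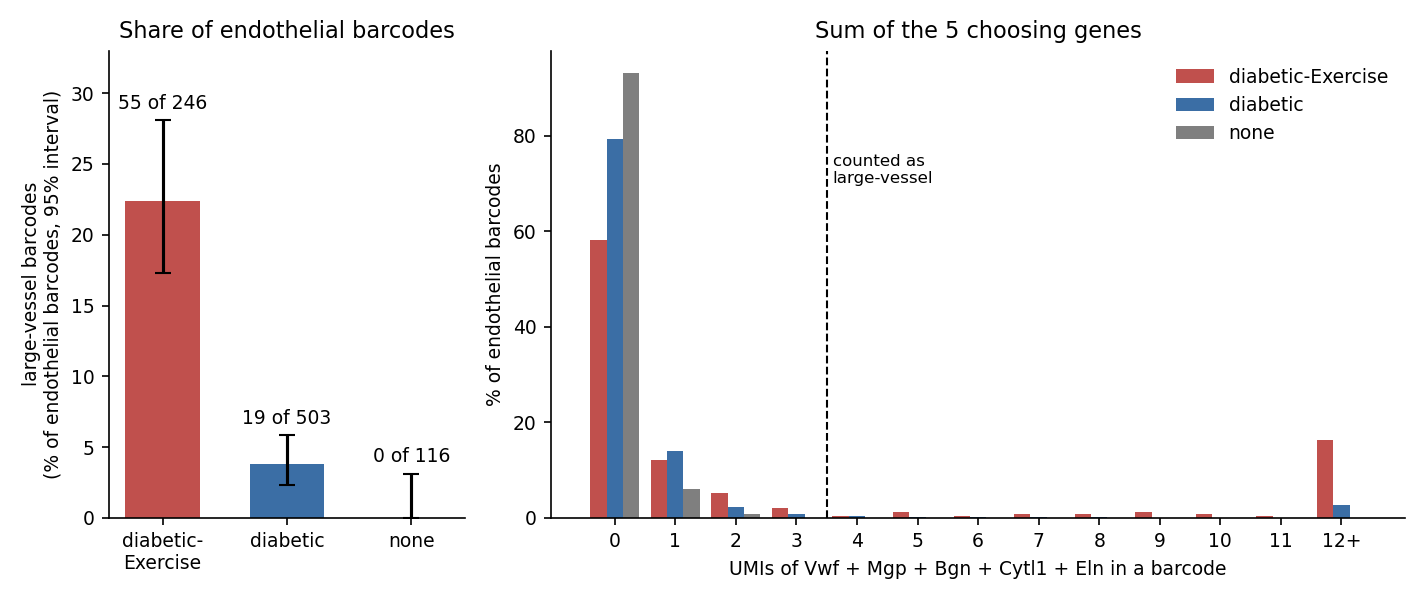
Left, large-vessel barcodes as a percentage of endothelial barcodes per library, with exact 95% intervals: 22.4% in diabetic-Exercise, 3.78% in diabetic and 0 of 116 in none. Right, the percentage of endothelial barcodes (vertical axis) at each summed UMI count of the 5 choosing genes (horizontal axis); most barcodes left of the dashed threshold are at 0 or 1 and most to the right at 12 or more.

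Without thinning, each choosing gene was read from most of the cells, with 1 exception. Mgp, a matrix protein that limits calcification (chromosome 6, 136872435 to 136875823, minus strand), had 1443 UMIs in the large-vessel barcodes of diabetic-Exercise and 262 in those of diabetic. Vwf, the von Willebrand factor of platelet adhesion (chromosome 6, 125546774 to 125686679, plus strand), had 405 and 136 UMIs in that order. Cytl1, a small secreted protein (chromosome 5, 37735519 to 37739820, plus strand), had 364 and 38. It was the exception, seen in 37 of 55 large-vessel barcodes of diabetic-Exercise and in 7 of 19 of diabetic. Bgn (biglycan, a proteoglycan) had 263 and 44 UMIs, and Eln (elastin) 225 and 47. Cldn5, a tight junction protein of the endothelial rule, had 108 and 9.

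Single barcodes differed widely. The highest barcode held 166 Mgp UMIs in diabetic-Exercise and 44 in diabetic, and 33 and 26 for Vwf. At 1000 UMIs per barcode, where 50 of the 55 and all 19 could be used, Vwf was seen in 41 of 50 large-vessel barcodes of diabetic-Exercise (82.0%) and 10 of 19 of diabetic (52.6%). Unthinned, it was seen in 50 of 55 and 12 of 19. Cytl1 was seen in 29 of 50 and 4 of 19 thinned barcodes, and Mgp in 45 of 50 and 12 of 19, against 51 of 55 and 18 of 19 unthinned. Bgn was seen in 33 of 50 and 9 of 19 thinned barcodes, against 45 of 55 and 14 of 19 unthinned. Eln was seen in 27 of 50 and 5 of 19, against 43 of 55 and 11 of 19. In acinar barcodes, which should lack these genes and had medians of 1955 and 5626.5 UMIs, Vwf was seen in 0.547% and 0.0781%, Cytl1 in 0.445% and 0.0335% and Mgp in 1.90% and 2.29%. Those low shares are read as the level of free RNA. Large-vessel barcodes had medians of 2790 UMIs and 1141 genes in diabetic-Exercise and 4397 UMIs and 1574 genes in diabetic.

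Markers outside the rule were those of endothelium. All 26 genes of the pan-endothelial list were seen in the large-vessel barcodes of each library, with 1449 UMIs in diabetic-Exercise and 793 in diabetic. Of that list, the receptor tyrosine kinase Tek had 64 and 26 UMIs, the TGF-beta co-receptor Eng 121 and 60, and the surface protein Ecscr 54 and 24. Of other cell types, T cell markers were at 0 in both libraries, macrophage markers had 11 and 2 UMIs, islet markers 9 and 11, and fibroblast markers outside the rule 45 and 18.

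Pericyte and smooth muscle markers were uneven. They had 32 UMIs in diabetic-Exercise, from 0 to 7 a barcode with 7 of 15 genes at 0. In diabetic they had 238 UMIs, from 0 to 160 a barcode with 4 of 15 at 0, and 1 barcode held 67.2% of them. Ductal markers had 301 and 175 UMIs, of which 1 diabetic barcode held 54.9%. The ductal list includes Clu, which is also on the arterial list. Acinar RNA, which spreads through every droplet of a digested pancreas, made up 25.6% of the UMIs of large-vessel barcodes in diabetic-Exercise and 26.1% in diabetic.

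The cells fell into arterial and venous kinds. This split was made after their values were seen. A barcode was called arterial-marked where Gja4, Gja5, Sox17, Hey1 and Sema3g together had at least 2 UMIs and more than Nr2f2, Ackr1, Selp, Lrg1 and Sele together, and venous-marked in the reverse case. In diabetic-Exercise 16 of 55 large-vessel barcodes were arterial-marked (29.1%, 17.6 to 42.9) and 33 venous-marked (60.0%, 45.9 to 73.0). In diabetic 3 of 19 were arterial-marked (15.8%, 3.38 to 39.6) and 14 venous-marked (73.7%, 48.8 to 90.9). The intervals of these shares overlap between the libraries. The remaining 6 and 2 barcodes were neither.

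UMIs of both kinds met in few barcodes, 4 in diabetic-Exercise and 3 in diabetic. The larger of the sums was between 1 and 3 in 13 and 3 barcodes, which are the ones near the limit. Median depth was 3873.5 UMIs for arterial-marked and 2547 for venous-marked barcodes in diabetic-Exercise, and 3453 and 4673 in diabetic. The kinds are ranges of a count, not cell types.

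**Figure D2:**
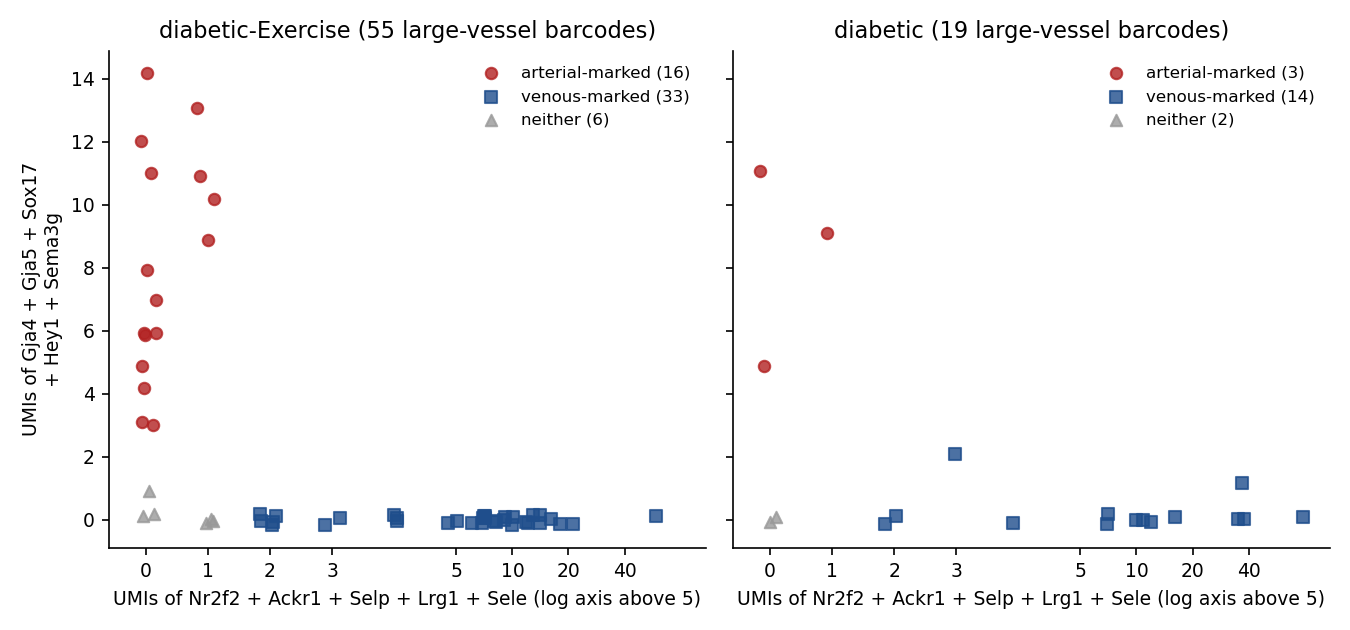
Each point is 1 large-vessel barcode, placed by its summed UMIs of 5 venous genes (horizontal, a log axis above 5) and 5 arterial genes (vertical), with a small jitter; diabetic-Exercise left, diabetic right. Points lie along the axes: arterial-marked barcodes have 0 or 1 venous UMIs, and 33 and 14 venous-marked barcodes spread along the horizontal axis.

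In diabetic-Exercise the choosing genes were shared unequally between the kinds. Arterial-marked barcodes held 1080 of the Mgp UMIs and venous-marked 331, and for Cytl1 272 and 90. Vwf ran the other way, with 35 UMIs in arterial-marked and 362 in venous-marked barcodes. Bgn had 137 and 116 and Eln 149 and 62. So the 16 arterial-marked barcodes carried most of the Mgp, Cytl1 and Eln and the 33 venous-marked most of the Vwf.

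Other genes followed the arterial kind in diabetic-Exercise, although the split did not use them. Klk10, a secreted serine protease, had 47 UMIs in arterial-marked barcodes and 0 in venous-marked ones. Gkn3, a gastrokine that marks arterial endothelium in mouse brain, had 47 and 1. Ltbp4, which ties TGF-beta to elastic fibres, had 138 and 20, and Fn1, fibronectin, 47 and 9. Ptgis, prostacyclin synthase, had 32 and 4, and Htra1, a secreted protease, 25 and 2. With the venous kind went the carboxypeptidase Cpe (14 UMIs in arterial-marked and 115 in venous-marked barcodes), Plvap of fenestral diaphragms (9 and 192) and the fatty acid binding protein Fabp4 (22 and 202).

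The 3 arterial-marked barcodes of diabetic were unlike those 16. They held 73, 131 and 211 UMIs of the capillary list, where the 16 of diabetic-Exercise held between 2 and 52, so the ranges did not overlap. They had 0 UMIs of Cytl1, Vwf, Klk10 and Gkn3, and 10 of Mgp. Instead they held 20 UMIs of the capillary gene Gpihbp1, 22 of Kdr and 141 of Fabp4, where the 16 had 0, 0 and 22. Of these 3 barcodes, 2 had smooth muscle or pericyte UMIs, 66 in all of the 5 mural genes counted (Acta2, Myh11, Rgs5, Cnn1 and Pdgfrb), against 2 UMIs in 1 of the 16.

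The genes that made the venous-marked call are given as a description. Lrg1, a leucine-rich glycoprotein of venules, had 197 UMIs in the 33 venous-marked barcodes of diabetic-Exercise and 133 in the 14 of diabetic, and a UMI in each of them. It was also seen in 3.11% of acinar barcodes of diabetic-Exercise and 21.5% of those of diabetic, at medians of 1955 and 5626.5 UMIs a barcode. The part of free Lrg1 RNA in the venous-marked calls was not tested. Selp, the P-selectin that slows leukocytes, had 30 and 45 UMIs, Ackr1, the chemokine receptor of venules, 37 and 43, and Nr2f2 35 and 32.

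Against the other endothelial barcodes of the same library, large-vessel barcodes were high in venous and elastic fibre genes and low in capillary ones. The rule chose them on this contrast, so the values are described and read no further. The other endothelial barcodes numbered 191 in diabetic-Exercise and 484 in diabetic. Levels are CPM, a gene's UMIs as a share of the TMM-scaled total of its group, and folds are ratios of CPM. Of 4091 genes measured in both diabetic libraries, 109 (2.66%) were past 2-fold higher in both and 274 (6.7%) past 2-fold lower in both, the genes of the rule left out. Without the TMM factors all log2 ratios would shift by 0.34 in diabetic-Exercise and 0.62 in diabetic.

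Peptide and protein processing enzymes were among the genes named by size. Cpe, which trims peptide hormones, had 135 UMIs in the large-vessel barcodes and 7 in the other endothelial barcodes of diabetic-Exercise, 45.4-fold (21.4 to 115), and 59 and 8 in diabetic, 102-fold (48.4 to 247). The cathepsin Ctsh was 51.8-fold (17.0 to 257) and 46.0-fold (17.8 to 140.0) higher, in the same order of libraries.

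Genes of leukocyte traffic followed. The adhesion molecule Vcam1 had 70 and 8 UMIs in diabetic-Exercise, 20.6-fold (9.90 to 49.6), and 35 and 3 in diabetic, 161-fold (50.8 to 818). Ackr1 was 12.4-fold (5.47 to 33.1) and 98.9-fold (41.9 to 284) higher, and Selp 7.06-fold (3.48 to 15.5) and 88.7-fold (39.7 to 233). For Selp and Ackr1 the intervals of the libraries did not overlap, but they cover counting error only. In diabetic 28 of the 45 Selp and 19 of the 43 Ackr1 UMIs were each in 1 barcode. In diabetic-Exercise 18 of the 33 Selp UMIs were in 1 barcode. In the other endothelial barcodes Selp and Ackr1 had 11 and 7 UMIs in diabetic-Exercise and 7 and 6 in diabetic, over 519487 and 1855810 UMIs in all.

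Other genes named by size follow. Timp2, an inhibitor of matrix proteases, was 17.5-fold (9.31 to 36.5) and 12.9-fold (7.41 to 22.3) higher. Igfbp4, which binds insulin-like growth factors, was 7.0-fold (4.86 to 10.3) and 6.01-fold (4.24 to 8.43), and the prostaglandin transporter Slco2a1 9.11-fold (6.1 to 14.0) and 7.61-fold (5.66 to 10.2). Edn1, the vasoconstrictor endothelin, was 7.58-fold (5.49 to 10.6) and 4.10-fold (2.69 to 6.1), and Ccn2, a matricellular target of Yap, 5.65-fold (3.87 to 8.39) and 4.21-fold (2.74 to 6.30). Also named by the rule, between 4.0-fold and 25.9-fold in either library, were Pgm5, H2-Ea-ps, Lrg1, Cp, Fstl1, Actn1, Mylk, Nr2f2 and Cald1. H2-Ea-ps, of an MHC class II family, is annotated as a polymorphic pseudogene. Whether its reads come from it or from a near copy was not tested.

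The lowest genes by the naming rule had 0 to 6 UMIs in the large-vessel barcodes of either library. Rgcc, a cell cycle regulator of capillaries, had 1 UMI in the large-vessel barcodes and 325 in the other endothelial barcodes of diabetic-Exercise, a ratio of 0.00724 (0.000183 to 0.0406), and 6 and 2334 in diabetic, 0.0355 (0.0130 to 0.0773). The carbonic anhydrase Car4 had 0 and 121 UMIs in diabetic-Exercise, at least 17.1-fold lower against a floor of 3 UMIs. In diabetic it had 1 and 656, a ratio of 0.0210 (0.000532 to 0.118). Rsad2, an interferon-induced antiviral enzyme, had 0 UMIs in the large-vessel barcodes of both libraries against 118 and 310, at least 16.7-fold and at least 7.49-fold lower. Cxcl12, a chemokine, had 4 and 336 UMIs in diabetic-Exercise and 4 and 1149 in diabetic, ratios of 0.0280 and 0.0480. Tcim, Efnb1, Ccrl2, Col13a1, Ramp3 and Hecw2 were also among the lowest.

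**Figure D3:**
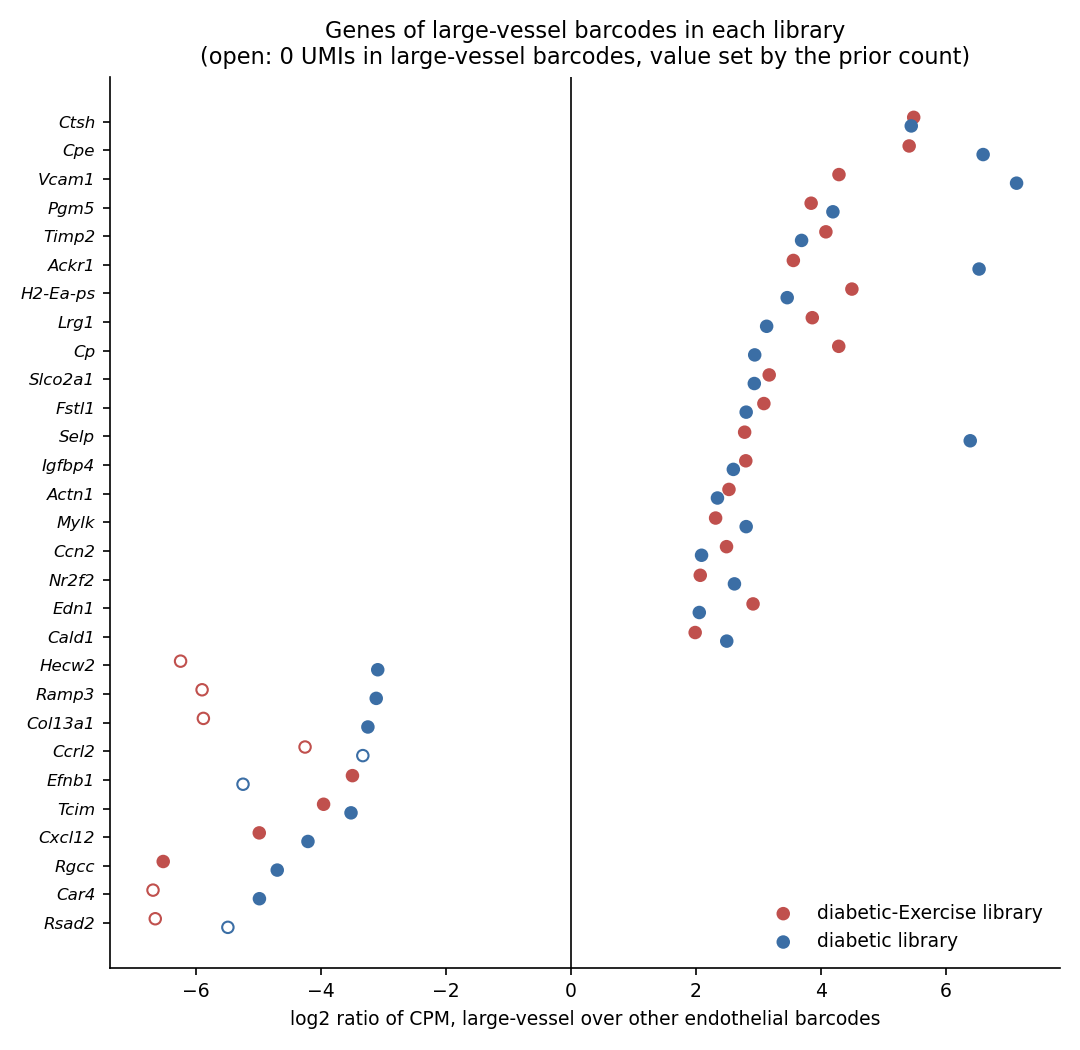
Log2 ratio of CPM, large-vessel over other endothelial barcodes, for 19 of the 20 highest and the 10 lowest genes by the naming rule; red, diabetic-Exercise; blue, diabetic; open circles have 0 UMIs in the large-vessel barcodes. The naming rule took only genes on the same side of 0 in both libraries. Vcam1, Ackr1 and Selp lie further to the right in diabetic.

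By list, venous genes were high and capillary genes low. A gene of a list counted as measured with at least 20 UMIs over the groups compared. In diabetic-Exercise 9 of 15 measured venous genes were past 2-fold higher and 1 lower, and in diabetic 11 and 2 of 17. Of the capillary list 2 and 17 of 21 were past 2-fold higher and lower in diabetic-Exercise and 2 and 16 of 23 in diabetic. The arterial list was split, with 9 higher and 9 lower of 25 in diabetic-Exercise and 4 and 10 of 22 in diabetic. Of the pan-endothelial list 2 and 10 of 26 were past 2-fold higher and lower in diabetic-Exercise and 0 and 11 of 26 in diabetic. For all genes measured, the counts were 305 and 587 of 4129 in diabetic-Exercise and 553 and 1526 of 7062 in diabetic. Fatty acid handling had 0 higher and 8 lower of 10 in diabetic-Exercise and 2 and 7 of 13 in diabetic. Genes of the capillary list were still seen, with 910 UMIs in 54 of the 55 large-vessel barcodes of diabetic-Exercise and 1235 in the 19 of diabetic. Of these UMIs Fabp4 had 230 and 572 and Plvap 207 and 142, in the same order. Both genes went with the venous kind in diabetic-Exercise. Rgcc, Car4, Gpihbp1 and Kdr had 1, 0, 0 and 24 UMIs in diabetic-Exercise and 6, 1, 22 and 40 in diabetic.

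Matrix lists differed. Of elastic fibre genes outside the rule 5 were measured in each library, 4 past 2-fold higher in diabetic-Exercise and 2 in diabetic, with 0 lower (median log2 ratios 1.76 and 0.72). Proteoglycans and matricellular proteins had 7 higher and 7 lower of 18 in diabetic-Exercise and 4 and 3 of 15 in diabetic (medians -0.37 and -0.59). Basement membrane had 0 and 5 of 12 in diabetic-Exercise and 1 and 5 of 14 in diabetic (-0.62 and -0.63).

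Setting diabetic-Exercise against diabetic asks how large-vessel cells of trained db/db mice differed from those of sedentary diabetic mice. Arterial and elastic fibre genes stood higher in diabetic-Exercise, and capillary and fatty acid handling genes lower. It rests on 55 and 19 barcodes with 173791 and 87428 UMIs. Of 1754 genes with at least 20 UMIs over both libraries, 200 (11.4%) were past 2-fold higher and 97 (5.53%) past 2-fold lower, so 67.3% of these were higher. By sign 969 were higher and 785 lower, and the median log2 ratio over all of them was 0.07 (quartiles -0.31 and 0.53).

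That balance moved with the scaling. Without TMM factors the log2 ratios shifted by -0.18 and 51.4% of the genes past 2-fold were higher, with 56.2% on totals without acinar and mitochondrial genes and 72.1% with median-of-ratios factors. In the other endothelial barcodes, 228 of 7690 genes (2.96%) were past 2-fold higher and 408 (5.31%) lower, with a median of -0.07.

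Genes of artery lining led the higher side. Klk10 (chromosome 7, 43781035 to 43785410, plus strand) had 47 UMIs (287 CPM) in diabetic-Exercise, in 6 barcodes with 23 in the highest, and 0 in diabetic, at least 8.90-fold higher. Gkn3 (chromosome 6, 87383256 to 87388935, minus strand) had 48 UMIs (294 CPM) in diabetic-Exercise and 1 (10.8 CPM) in diabetic, a ratio of 27.3 (4.67 to 1099). Of the 48 Gkn3 UMIs of diabetic-Exercise, 19 were in 1 barcode. Bmx, a tyrosine kinase of arterial endothelium, had 36 and 2 UMIs (220.1 and 21.5 CPM), a ratio of 10.2 (2.63 to 87.7). Each diabetic count here is 0 to 2 UMIs, so the sizes of these folds are loosely held.

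Ptgis, whose product relaxes vessels and keeps platelets apart, had 36 UMIs in diabetic-Exercise and 2 in diabetic, a ratio of 10.2. Sema3g, a semaphorin of arteries, had 43 and 3 (263 and 32.3 CPM), 8.14-fold (2.61 to 41.0). Fn1 had 57 and 5 (349 and 53.8 CPM), 6.48-fold (2.62 to 20.7). Gja5, the connexin Cx40 that joins arterial cells, had 43 and 6 (263 and 64.6 CPM), 4.07-fold (1.73 to 11.7). Its partner connexin Gja4 had 13 and 9, a ratio of 0.821 (0.325 to 2.18) whose interval includes 1.

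Matched at 1000 UMIs a barcode, shares of cells were less far apart for some of these genes. Bmx was seen in 9 of 50 large-vessel barcodes of diabetic-Exercise and in 0 of 19 of diabetic, where 3 counts would be 15.8%. Sema3g was seen in 6 of 50 and in 0 of 19. At this depth a count of 0 limits barcodes with a UMI, not cells that express the gene. Gja5 was seen in 6 of 50 and 2 of 19, and Gkn3 in 3 of 50 and 1 of 19. Unthinned, the counts were 18 of 55 and 2 of 19 for Bmx, 16 and 2 for Sema3g, 14 and 2 for Gja5 and 8 and 1 for Gkn3. Among acinar barcodes the share was 0.0365% and 0% for Bmx, 0.0365% and 0.0893% for Sema3g, 0.0365% and 0.0112% for Gja5 and 0.233% and 0.324% for Gkn3.

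The naming rule also gave Itprid2, a ratio of 5.87 (1.83 to 30.01), and Ntn1, the guidance protein netrin-1, 5.40 (1.94 to 20.8). Atp2a3, a calcium pump of the endoplasmic reticulum, stood at 4.64 (1.99 to 13.3) and Kctd12 at 4.40 (1.56 to 17.2). Cdh13, T-cadherin, and Itgb4, an integrin of laminin contacts, both had 38 UMIs in diabetic-Exercise and 5 in diabetic, 4.32-fold. In the other endothelial barcodes Cdh13 had a ratio of 0.289 (0.135 to 0.553) and Sema3g one of 1.25 (0.908 to 1.71). Those intervals lay below the ones of the large-vessel barcodes for both genes.

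The same ratios were taken in the venous-marked barcodes alone, an alternative chosen after the data were seen. These barcodes were chosen to hold fewer arterial than venous UMIs, so low arterial counts there are partly built in. The part of the mix of kinds was not tested. Among the 33 of diabetic-Exercise and the 14 of diabetic, Klk10 had 0 UMIs in both and Gkn3 1 and 0. The ratio was 1.42 (0.203 to 15.7) for Ptgis, 1.59 (0.445 to 7.08) for Fn1 and 0.708 (0.0949 to 5.29) for Atp2a3, against 10.2, 6.48 and 4.64 in all large-vessel barcodes. Sema3g, one of the genes that made the split, had 0 and 2 UMIs. Ntn1 was at 5.31 (1.24 to 47.9) and Itgb4 at 3.97 (1.51 to 13.2), both with intervals above 1. Bmx was at 3.54 (0.755 to 33.2).

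The genes named on the lower side included the type IV collagen chains Col4a1 and Col4a2 and carriers of fatty acids. Col4a2, a chain of the collagen of basement membranes, had 5 UMIs (30.6 CPM) in diabetic-Exercise. In diabetic it had 31 (334 CPM), 14 of them in 1 barcode. Its ratio was 0.0916 (0.0278 to 0.238). Its partner chain Col4a1 had 28 and 47, a ratio of 0.338 (0.204 to 0.552), and the matricellular protein Sparc 71 and 115, 0.351 (0.257 to 0.476). Of the 47 Col4a1 UMIs of diabetic, 19 were in 1 barcode. In venous-marked barcodes alone the 3 ratios were 0.0708, 0.279 and 0.301. In the other endothelial barcodes they were 0.553, 0.665 and 0.736, nearer to 1.

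Fabp4 had 230 UMIs (1406 CPM) in diabetic-Exercise and 572 (6157 CPM) in diabetic, a ratio of 0.228 (0.195 to 0.267). Cd36, the fatty acid transporter, had 15 and 48, a ratio of 0.178 (0.0923 to 0.323), and the intracellular carrier Fabp5 10 and 27, a ratio of 0.210. Gpihbp1, which holds lipoprotein lipase on capillaries, had 0 and 22, at least 12.9-fold lower, with 20 of the 22 in the 3 arterial-marked barcodes of diabetic. In the other endothelial barcodes Fabp4 stood at 0.860 (0.832 to 0.887), Cd36 at 0.944 (0.852 to 1.04) and Gpihbp1 at 0.741. For Fabp4 and Cd36 those intervals did not overlap those of the large-vessel barcodes. In venous-marked barcodes alone the ratios were 0.346 (0.291 to 0.411) for Fabp4 and 0.341 (0.162 to 0.684) for Cd36.

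Igfbp7, a secreted binding protein of small vessels, had 69 UMIs (422 CPM) in diabetic-Exercise and 178 (1916 CPM) in diabetic, a ratio of 0.220 (0.164 to 0.292). It stood at 0.514 (0.481 to 0.549) in the other endothelial barcodes. The stress and early response genes Ier3 (0.312, 0.221 to 0.436), Cebpd (0.321), Ppp1r15a (0.326) and Ubb (0.360) were also named, and were lower in the other endothelial barcodes too, at 0.431, 0.524, 0.356 and 0.547. Kdr, the main VEGF receptor, had a ratio of 0.341 (0.197 to 0.579), and 1.06 in venous-marked barcodes alone. In diabetic 19 of the 40 Kdr, 60 of the 178 Igfbp7 and 31 of the 76 Cebpd UMIs were each in 1 barcode. Sparcl1 had 26 UMIs in diabetic-Exercise and 51 in diabetic, 34 of them in 1 barcode, with a ratio of 0.290 (0.173 to 0.473) and 1.06 in venous-marked barcodes alone.

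Mural RNA moved with this comparison. Pericyte and smooth muscle genes were lower in diabetic-Exercise in 6 of 6 measured, with Acta2 at 2 UMIs in diabetic-Exercise and 32 in diabetic, Tagln at 11 and 48, and Rgs5 at 0 and 39. Most of the diabetic UMIs were in 1 to 3 barcodes. With the 3 barcodes of each library that held mural UMIs left out, the log2 ratio of Fabp4 was -2.03, against -2.13 with all, and that of Col4a2 -2.81, against -3.33. That of Kdr was -0.69, against -1.54, and that of Sparcl1 0.35, against -1.77.

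**Figure D4:**
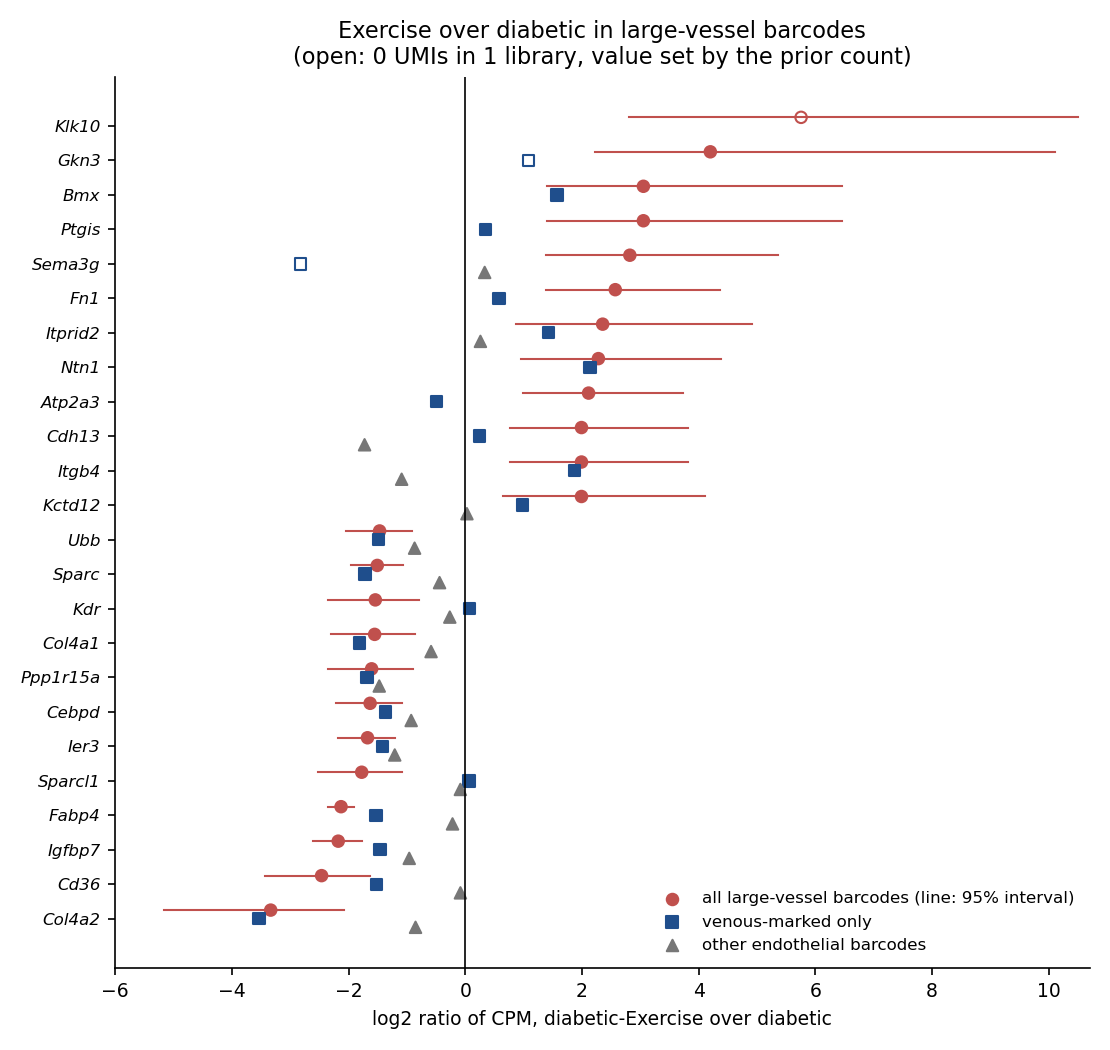
Log2 ratio of CPM, diabetic-Exercise over diabetic, for the 12 highest and 12 lowest genes by the naming rule; red circles with 95% counting intervals, all large-vessel barcodes; blue squares, venous-marked only; grey triangles, other endothelial barcodes where measured. Ntn1 and Itgb4 are near 2 among venous-marked barcodes as well, while Ptgis, Fn1, Cdh13, Kdr and Sparcl1 lie near 0 there. No intervals are drawn for venous-marked points. Ptgis, Fn1 and Cdh13 rest there on 4, 9 and 7 UMIs in diabetic-Exercise and 2, 4 and 4 in diabetic. Their intervals overlap those of all large-vessel barcodes.

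As lists, 18 of 26 arterial genes were measured, 8 past 2-fold higher and 0 lower, with a median log2 ratio of 0.77, beside 0.07 for all genes. The median was 0.33 in the other endothelial barcodes and 0.14 among venous-marked barcodes. For the other endothelial barcodes, here and below, a list median is over the genes measured there, 23 for this list. The list includes Gja5, Sox17 and Sema3g, which helped make the split, and how far the split set the venous-marked value was not tested. The transcription factors Sox17 and Mecom, both of arterial fate, had 27 and 6 UMIs (ratio 2.56, 1.03 to 7.57) and 35 and 5 UMIs (3.98, 1.55 to 13.004). Mecom was at 3.37 (1.12 to 13.6) in venous-marked barcodes alone. Edn1 had 161 and 33 UMIs (984 and 355 CPM), 2.77-fold (1.90 to 4.16), with 55 in 1 barcode of diabetic-Exercise, and 2.07-fold (1.31 to 3.37) in venous-marked barcodes. Clu, a secreted chaperone, stood at 1.72 (1.34 to 2.21), and at 0.642 (0.465 to 0.884) in venous-marked barcodes, on the other side of 1.

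Venous genes were low by a smaller amount. Of 20, 15 were measured, 1 past 2-fold higher and 4 lower, with a median of -0.35, and -0.23 in the other endothelial barcodes. Selp had 33 UMIs in diabetic-Exercise and 45 in diabetic, a ratio of 0.417 (0.258 to 0.668), and Ackr1 37 and 43, 0.489 (0.306 to 0.777). Among venous-marked barcodes these were 0.472 (0.287 to 0.766) and 0.610 (0.382 to 0.969), but both genes helped define that subset, and 28 of the 45 Selp and 19 of the 43 Ackr1 UMIs of diabetic were each in 1 barcode. Lrg1 was at 0.854 (0.683 to 1.07), Nr2f2 at 0.620 (0.376 to 1.03) and Vcam1 at 1.14 (0.747 to 1.76), with intervals that include 1. At 1000 UMIs a barcode, Ackr1 was seen in 5 of 50 barcodes of diabetic-Exercise and 3 of 19 of diabetic (15 of 55 and 6 of 19 unthinned), and in 0.0438% and 0.0446% of acinar ones.

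Of the capillary list 14 of 26 were measured, 1 past 2-fold higher and 7 lower, with a median of -0.99. It was -0.26 in the other endothelial barcodes and -0.39 in venous-marked barcodes. The gene past 2-fold higher was the homeobox factor Nkx2-3, with 21 and 3 UMIs and a ratio of 3.98 (1.19 to 20.8). Of 16 fatty acid handling genes 4 were measured, Fabp4, Cd36, Fabp5 and Gpihbp1, which are also on the capillary list, and these 4 were past 2-fold lower. Their median was -2.33. In the other endothelial barcodes it was -0.09, over the 15 genes of that list measured there.

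Among elastic fibre genes outside the rule, 4 of 22 were measured, 2 past 2-fold higher, with a median of 0.91 (0.47 in the other endothelial barcodes). Ltbp4 had 161 UMIs in diabetic-Exercise and 25 in diabetic (984 and 269 CPM), 3.66-fold (2.39 to 5.82), and 0.746 (0.378 to 1.48) in venous-marked barcodes alone. Lox, which cross-links elastin, had 21 and 5, a ratio of 2.39 (0.876 to 8.10), and the elastic fibre protein Fbln2 1.62 (1.02 to 2.63). In arterial-marked barcodes of diabetic-Exercise Ltbp4 had 138 of its 161 UMIs.

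Signals of the vessel wall were mixed. Of 13 measured genes of BMP and TGF-beta signalling, 3 were past 2-fold higher and 0 lower (median 0.19). The ligand Bmp4 had 78 and 13 UMIs, 3.41-fold (1.88 to 6.69), and 1.63 (0.827 to 3.41) in venous-marked barcodes. Nitric oxide and flow response had 4 higher and 1 lower of 15, with a median of 0.09 that turned to -0.08 without TMM factors. Within that list the endothelial nitric oxide synthase Nos3 had 41 and 7 UMIs, 3.33-fold (1.48 to 8.79), while it was 0.799 in the other endothelial barcodes. Klf4, a flow-induced factor, had 75 and 104, a ratio of 0.410 (0.300 to 0.557), and Klf2 was at 0.812 (0.625 to 1.06).

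Coagulation and Weibel-Palade bodies had 4 of 11 measured genes past 2-fold higher and 1 lower (median 0.24), and endothelial junctions 2 and 0 of 10 (0.45). Basement membrane had 0 and 2 of 6 (-0.13), VEGF and angiopoietin signalling 0 and 3 of 11 (-0.23), and adhesion and inflammation 1 and 3 of 9 (-0.26). Proteoglycans and matricellular proteins had 3 past 2-fold higher and 6 lower of 17, while by sign 10 were higher and 7 lower and the median was 0.24. Among these Igfbp3 had 4 UMIs in diabetic-Exercise and 47 in diabetic, of which 41 were in 1 barcode. The pan-endothelial list had 3 and 2 of 24, with a median of 0.26.

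Stress and mitochondrial lists are given beside the other endothelial barcodes. Immediate early genes, the fast response to stimuli that dissociation also evokes, had 14 of 16 below 0 with a median of -0.75, and 17 of 17 below with -0.86 in the other endothelial barcodes. Fos had 282 and 292 UMIs, a ratio of 0.549 (0.464 to 0.648), and 0.517 in the other endothelial barcodes. The heat shock genes Hspa1a (4.26, 1.501 to 16.6) and Hspa1b (3.91, 1.85 to 9.496) were at 3.499 and 9.23 there. Mitochondrially encoded transcripts had 8 of 9 past 2-fold higher with a median of 1.39, and 0.64 in the other endothelial barcodes. The median mitochondrial share was 6.77% in large-vessel barcodes of diabetic-Exercise and 2.55% in those of diabetic, and 6.85% and 4.10% in the other endothelial barcodes. The part of RNA quality in the gene ratios was not tested.

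MHC class II genes were measured in few UMIs, and no test of the difference between the sets of barcodes was made. The 4 measured genes had a median of -0.40 with 0 past 2-fold, and in the other endothelial barcodes 5 of 5 were past 2-fold lower, with -1.58. Cd74, the invariant chain, had 75 and 34 UMIs, a ratio of 1.25 (0.825 to 1.94), against 0.421 (0.284 to 0.608) in the other endothelial barcodes, and these intervals did not overlap. H2-Ab1 was at 0.639 (0.355 to 1.16), against 0.301 (0.157 to 0.533), and these did. Interferon response genes had 0 higher and 3 lower of 10 (median -0.50, and -0.37 in the other endothelial barcodes), and MHC class I 0 and 1 of 8 (-0.26).

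**Figure D5:**
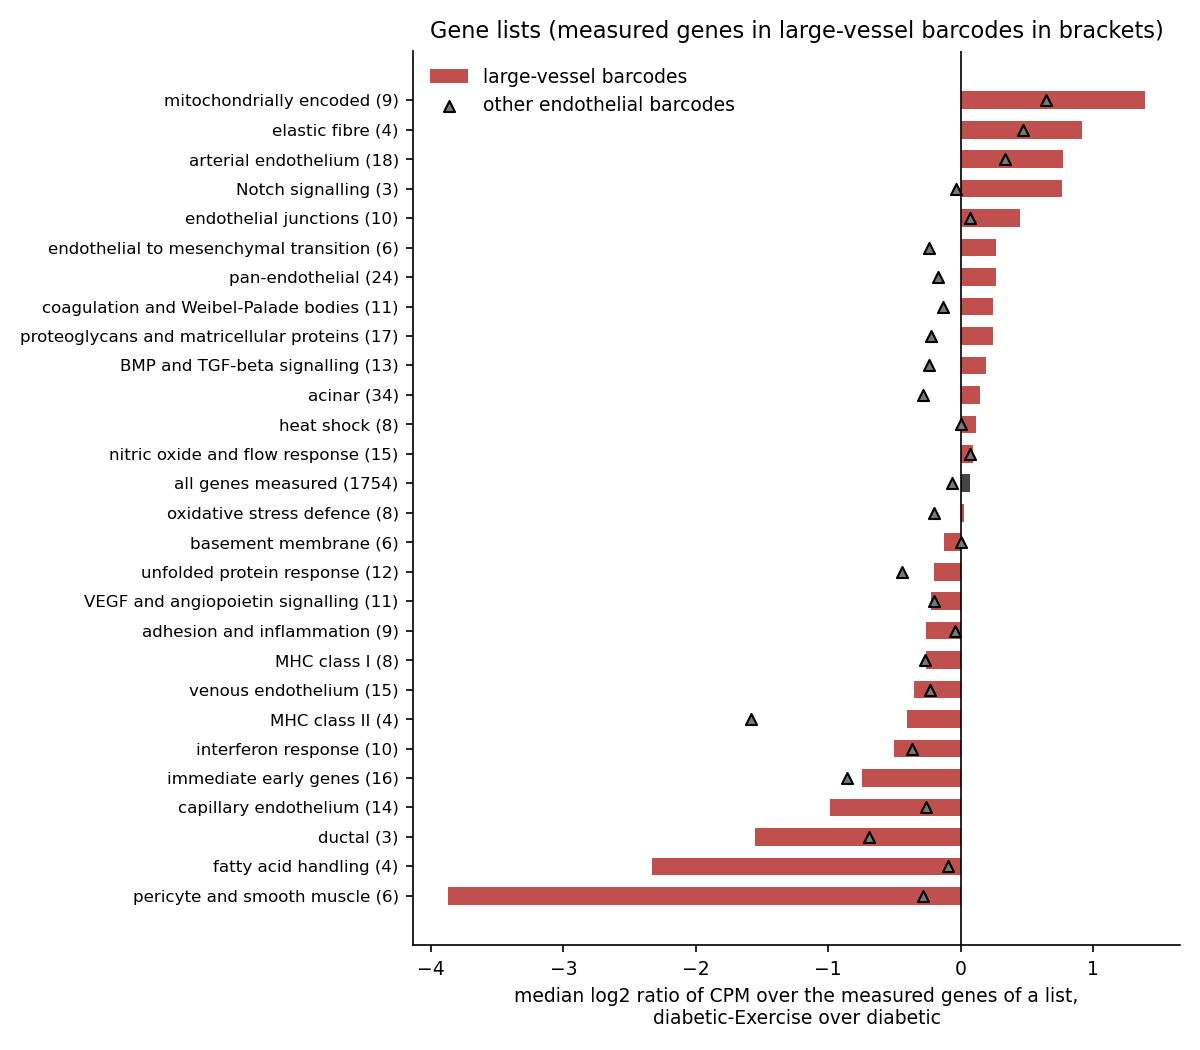
Median log2 ratio of CPM, diabetic-Exercise over diabetic, of each list with at least 3 measured genes; red bars, large-vessel barcodes (all genes in black); grey triangles, other endothelial barcodes; genes with 0 UMIs in a library enter at their bound. Mitochondrial, elastic fibre and arterial lists reach 1.39, 0.91 and 0.77, and fatty acid handling -2.33. A bar and its triangle can rest on different genes of a list, since each takes the genes measured in its own barcodes.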

How the data were processed

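The authors deposited, for each library, whole-number UMI counts per gene and barcode, with no normalization. They were made with Cell Ranger, version 7.1.0 per the submitters' processing notes and 6.1.2 per the file headers. The genome build: not given in the sources used here; all 55450 features match the identifiers and symbols of GENCODE M21 (GRCm38), the source of gene positions. Every deposited barcode was read, and the rule at the head of the report was applied to raw UMIs.

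Raw UMIs of large-vessel and of other endothelial barcodes were summed per library and scaled with edgeR 4.0.16 TMM factors (R 4.3.3) to CPM. Ratios have exact conditional Poisson 95% intervals, shares exact Clopper-Pearson 95% intervals. UMI counts of 1 library are not replicates, so no p-value was computed. Log2 ratios use a prior count of 0.5, and a gene with 0 UMIs in 1 library is set against a floor of 3 UMIs. Called means past 2-fold; genes needed at least 20 UMIs over both groups, and genes of the rule were left out. Positive ratios mean higher in diabetic-Exercise, or in large-vessel barcodes. Scrublet (scanpy 1.11.5) scored doublets; its automatic threshold marked 0 barcodes, so none were removed, and leaving out the top 5% was an alternative. Acinar barcodes, used for free RNA, had over 50% of UMIs from the 41 acinar genes and 0 UMIs of the 6 endothelial rule genes. Other tools were Python 3.11.15, numpy 2.4.6, scipy 1.17.1, pandas 2.3.3 and matplotlib 3.10.9. The ratio and interval code was tested on simulated data.

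Named genes were the 20 highest and 10 lowest for large-vessel over other endothelial barcodes, ranked by the value nearest 0 over both diabetic libraries, with at least 20 UMIs on the higher side. For diabetic-Exercise over diabetic they were the 12 highest and 12 lowest with at least 30 UMIs in at least 5 barcodes of the higher library and at least 0.5 times the CPM of its other filtered barcodes. Rule, mitochondrial, ribosomal, haemoglobin and acinar genes were left out of both, and genes of the lists were named for their role. A gene that the rule named is not reported here. Of the 39 lists, those with at least 3 measured genes are described. The members, rule and lists were chosen with earlier results of these data known. The arterial and venous kinds, and leaving out mural RNA for shares and for the comparison with other endothelial barcodes, were chosen after the data were seen. Other alternatives were the thresholds of the rule, doublets, depth, scaling, the count minimum, and leaving out the top barcode of each gene.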

Additional observations from a re-analysis of the deposited data

How the results depend on the processing

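No paired analysis was possible because each group is 1 library. The share ratio of diabetic-Exercise to diabetic stayed within 5.33 and 9.90 over endothelial barcodes under 8 alternatives, and was 2.12 over all filtered barcodes. Genes past 2-fold higher in diabetic-Exercise than in diabetic were 200 of 1754 measured in all large-vessel barcodes. They were 47 of 594 with at least 50 UMIs a gene and 2290 of 11629 with at least 1 UMI. With barcodes thinned to 1000 UMIs they were 75 of 369, and with venous-marked barcodes alone 87 of 1076. Those past 2-fold lower, 97, numbered 33, 2072, 11 and 63 of the same totals. The number of genes measured changed with each setting, so a smaller count is not by itself a smaller share. Why the shares differed was not tested. For large-vessel over other endothelial barcodes, the 109 of 4091 genes higher in both libraries became 15 after thinning, which also leaves fewer UMIs to measure genes by. Of the 24 genes named by size, recomputed under each alternative, 5 log2 ratios changed sign: with venous-marked barcodes alone Sema3g (-2.82, a gene used to make that split), Atp2a3 (-0.50), Sparcl1 (0.065) and Kdr (0.073), and without mural RNA Sparcl1 (0.35). Of the other log2 ratios of named genes under alternatives, 259 stayed within the counting interval and 23 did not, and of list medians 333 stayed near their value and 18 did not. Depth limits the diabetic side most, with 19 barcodes and 87428 UMIs: genes with few UMIs there have intervals that span more than 1 order of size.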
